A study of Homo sapiens with 6 samples.

Results

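This account describes 46 human genes of mitosis, the spindle and the kinetochore in motor neuron cultures made from the established human embryonic stem cell line H9. The genes were taken from a list of G2/M regulators, spindle checkpoint genes, kinetochore genes and spindle genes, with the kinesins named KIF left out. All 46 symbols matched a gene among the 57820 of the deposited count table, and all 46 passed the filter on low counts that left 17803 genes for testing. Both groups have the genotype WT in the labels. Progenitors of motor neurons had been differentiated with 0.01 μM RA (retinoic acid) and 0.1 μM SAG, an agonist of Hedgehog signalling. In one group, simulated microgravity (SMG), cultures were rotated in a 2D clinostat, so that gravity kept changing its direction relative to the cells. The other group was kept at normal gravity (NG). Each group had 3 libraries of bulk RNA, and the sources used here do not give the time in the clinostat.

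Mitosis is driven by cyclin-dependent kinase CDK1 with its A and B cyclins, and is ended when the anaphase-promoting complex (APC/C) marks those cyclins and the separase inhibitor securin for destruction. In between, kinetochores built on the centromere bind spindle microtubules, and the spindle checkpoint holds anaphase back until every chromosome is attached. Genes of this kind are transcribed mostly in the G2 and M phases, and postmitotic neurons carry little of their RNA. In a differentiating culture that still holds neural progenitors, dividing progenitors are the usual source of such transcripts.

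Total counts ranged from 20986483 to 22685870 per library in SMG and from 16329907 to 21386253 in NG. Nothing in the labels says that libraries came from separate cultures. The p-values thus set the difference between groups only against the spread of these libraries, and that spread may be technical. Levels are CPM, counts scaled to the library's size after TMM normalization. Log2 fold changes are SMG minus NG, ± SE, with adjusted p-values over all tested genes from edgeR's quasi-likelihood test and n = 3 per group. Genes that define neurons (DCX, MAP2, STMN2), motor neurons (ISL1, MNX1, CHAT, SLC18A3) and neural progenitors (SOX2, NES, VIM, OLIG2) were all present in both groups. The culture may therefore have been a mixture, but bulk RNA does not show which cells held these transcripts. In bulk samples fewer cells of a type also cannot be told apart from less RNA per cell.

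Most of the mitotic genes were lower in SMG. Of the 46, 35 fell and 2 rose, where 18.5% of all tested genes were called lower and 17.3% higher. Among the 35 genes the falls ran from 12.4% to 33.3%, and the median log2 fold change of all 46 was -0.30, against -1.8e-04 over all tested genes. The deepest fall was that of PTTG1, which encodes securin. The 2 genes that rose were CDC25B, a phosphatase that activates CDK1, and FOXM1, a transcription factor of G2/M genes. MKI67, which encodes the proliferation marker Ki-67, and the kinases PLK1 and AURKB did not pass.

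In 37 of the 46 genes, all 3 SMG libraries lay below all 3 NG libraries, a pattern found in 23.6% of tested genes. In 2 genes, CDC25B and FOXM1, all SMG libraries lay above, as in 22.6% of tested genes. Well expressed genes are called more often, so the comparison was also made above 10 CPM: there 33 of 44 members fell and 2 rose, beside 26.3% lower and 22.7% higher among the 10424 tested genes at that level. After removal, library by library, of the trend with transcript length and GC content, 36 members fell and 0 rose. Of all 17803 tested genes, at any level, 16.2% were then lower and 14.9% higher.

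**Figure D1:**
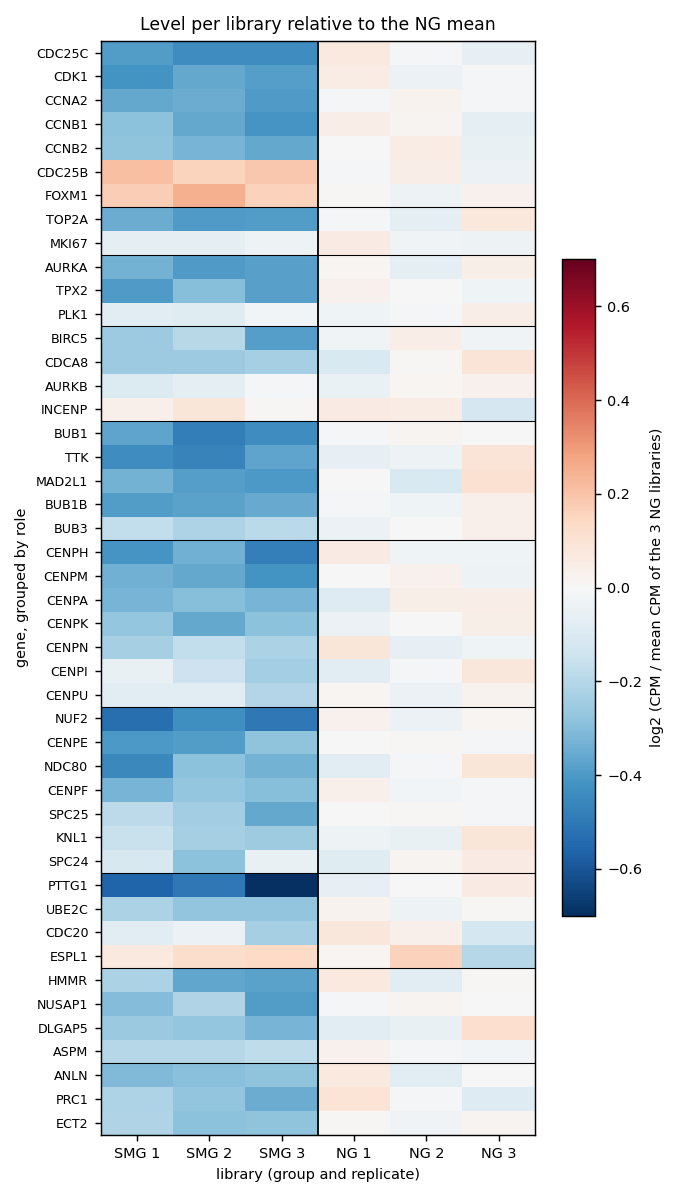
Each row is 1 of the 46 genes, grouped by role between the black lines, and each column is 1 library, SMG on the left and NG on the right. Colour gives the log2 ratio of CPM to the mean of the 3 NG libraries. The SMG columns lean to blue for the 42 genes with a negative fold change, deepest for PTTG1 and NUF2, and red for CDC25B and FOXM1.

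Promoters of G2/M genes are known for the cell cycle genes homology region (CHR), which the MuvB complexes bind, and for CCAAT boxes, which NF-Y binds. RefSeq promoters on GRCh38.p14, from 250 bases before to 50 bases after the start, were given for 36 of the 46 genes and not for FOXM1, AURKA, TPX2, BIRC5, BUB3, TTK, CENPH, CENPM, KNL1 and UBE2C. The letters searched on both strands were TTTGAA and its variant TTCGAA for the CHR, and CCAAT for the box that NF-Y binds. A CHR match was found in 25 of the 36 (69.4%) and in 16.4% of all 35116 promoters in the table, and a CCAAT match in 28 (77.8%) and in 34.6% of all. For each gene of this and the other lists only the first promoter listed was searched. The shares of all promoters count every promoter listed, so they are per promoter and not per gene. Matches may overlap, and did in 4 of the 36 promoters. A match is a description of the letters and not a mapped site.

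Among the 26 members that fell and had a promoter, 20 held a CHR match, and among the 10 others 5 did. MKI67, PLK1, INCENP, CDC20 and ESPL1 were those 5, and CDC25B, CDC25C, CENPE and CENPI had neither motif in the window searched. Any other starts of these genes were not searched, so a motif there would have been missed. In the other lists a CHR match was found in 10 of 12 promoters of mitotic kinesins, 20 of 36 of other kinetochore and spindle genes, 8 of 17 of cohesin and condensin, 3 of 18 of the APC/C and 2 of 31 of G1/S and replication genes.

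Printed here are the promoters of the 5 members with the largest change among those whose mean reached 10 CPM and that held a CHR match. They are NUF2 (chr1:163321704-163322003, plus strand), BUB1 (chr2:110678014-110678313, minus strand), CDK1 (chr10:60778081-60778380, plus strand), TOP2A (chr17:40417847-40418146, minus strand) and MAD2L1 (chr4:120066799-120067098, minus strand). Capitals mark the letters of either motif on either strand. They show how the letters differ in place: in NUF2, BUB1 and MAD2L1 the CHR match begins at position 17, 2 and 25 from the start, in CDK1 at position -161, and TOP2A has 2 of them with 4 CCAAT matches.
NUF2: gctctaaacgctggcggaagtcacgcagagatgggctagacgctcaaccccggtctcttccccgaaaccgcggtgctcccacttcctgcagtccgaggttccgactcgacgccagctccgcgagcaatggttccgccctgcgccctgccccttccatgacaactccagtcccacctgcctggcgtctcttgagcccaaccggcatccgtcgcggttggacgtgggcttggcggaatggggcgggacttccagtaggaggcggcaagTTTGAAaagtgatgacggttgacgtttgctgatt
BUB1: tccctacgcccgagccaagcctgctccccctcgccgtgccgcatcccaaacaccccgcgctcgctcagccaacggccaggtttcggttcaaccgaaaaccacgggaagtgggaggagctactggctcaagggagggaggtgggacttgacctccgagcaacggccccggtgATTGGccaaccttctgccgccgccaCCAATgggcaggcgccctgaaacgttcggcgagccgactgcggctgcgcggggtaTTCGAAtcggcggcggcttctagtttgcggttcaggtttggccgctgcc
CDK1: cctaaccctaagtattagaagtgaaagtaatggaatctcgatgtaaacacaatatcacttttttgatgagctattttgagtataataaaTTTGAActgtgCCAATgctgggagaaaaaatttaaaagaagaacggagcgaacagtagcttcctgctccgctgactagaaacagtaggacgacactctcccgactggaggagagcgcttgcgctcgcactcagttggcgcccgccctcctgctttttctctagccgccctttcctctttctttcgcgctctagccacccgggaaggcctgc
TOP2A: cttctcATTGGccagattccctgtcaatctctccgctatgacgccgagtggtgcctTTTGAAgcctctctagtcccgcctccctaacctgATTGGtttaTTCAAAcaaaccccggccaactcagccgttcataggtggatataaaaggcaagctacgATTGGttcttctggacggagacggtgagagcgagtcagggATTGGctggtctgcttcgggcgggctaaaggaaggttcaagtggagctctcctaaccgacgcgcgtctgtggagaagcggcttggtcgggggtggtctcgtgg
MAD2L1: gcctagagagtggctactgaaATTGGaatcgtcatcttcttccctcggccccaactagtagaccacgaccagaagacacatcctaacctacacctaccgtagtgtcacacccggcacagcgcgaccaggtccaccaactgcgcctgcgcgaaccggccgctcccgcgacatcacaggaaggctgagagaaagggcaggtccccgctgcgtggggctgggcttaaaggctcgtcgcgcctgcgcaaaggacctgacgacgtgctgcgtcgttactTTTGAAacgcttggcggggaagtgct

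Among the genes that switch CDK1 on, the cyclins and the kinase itself fell together. CDK1, the kinase of mitotic entry, had 64.0, 66.6 and 65.4 CPM in SMG, against 88.7, 83.0 and 84.7 CPM in NG (-0.39 ± 0.04, adjusted p = 3.04e-08). CCNA2, its cyclin A partner in S and G2 phase, had 61.1, 61.4 and 59.5 CPM in SMG, against 77.3, 79.5 and 77.8 CPM in NG (-0.37 ± 0.04, adjusted p = 9.06e-08). CCNB1, the cyclin B that carries CDK1 into mitosis, had 83.2, 79.3 and 76.2 CPM in SMG, against 105, 103 and 97.0 CPM in NG (-0.35 ± 0.04, adjusted p = 1.63e-07). In each of the 3 genes every SMG library was below every NG library, by close to the same proportion, and so it was for the second B-type cyclin CCNB2 (-0.32).

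The phosphatases that remove inhibitory phosphates from CDK1 gave 1 fall and 1 rise. CDC25C had 12.5, 12.1 and 12.1 CPM in SMG, against 17.2, 16.3 and 15.8 CPM in NG (-0.43 ± 0.08, adjusted p = 8.87e-05), so it fell by 25.5%. CDC25B had 64.1, 61.8 and 63.1 CPM in SMG, against 55.1, 57.3 and 53.9 CPM in NG (0.18 ± 0.05, adjusted p = 0.00201), and here all SMG libraries were the higher ones. FOXM1, which activates transcription of many genes of this list, had 41.9, 44.1 and 41.6 CPM in SMG, against 37.3, 36.2 and 37.9 CPM in NG (0.19 ± 0.05, adjusted p = 0.00389), again with no overlap. Both rises ended when the trend with transcript length and GC content was removed: CDC25B was then at 0.06 (adjusted p = 0.272, 0.000438 to 0.287 over the alternatives) and FOXM1 at 0.13 (adjusted p = 0.0502, 0.00152 to 0.0658 over the alternatives). In GENCODE 29, 15.9% of FOXM1's exon bases overlap ITFG2 on the other strand, and the sources used here do not say whether the counting used strand.

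Of the pair of genes most used to mark dividing cells, TOP2A fell and MKI67 did not pass. TOP2A, the topoisomerase that untangles sister chromatids, had 438, 423 and 426 CPM in SMG, against 556, 533 and 587 CPM in NG (-0.38 ± 0.03, adjusted p = 1.33e-09), and it fell by 23.1%. MKI67, whose protein coats mitotic chromosomes, had 296, 296 and 302 CPM in SMG, against 323, 305 and 302 CPM in NG (-0.06 ± 0.03, adjusted p = 0.184, 95% interval -0.13 to 0.01). The SMG libraries of MKI67 were below the NG libraries, but by less than 1 CPM between the nearest ones (302.1 in SMG and 302.3 in NG). With the length and GC trend removed MKI67 passed at -0.11 (adjusted p = 0.00189, 0.00189 to 0.672 over the alternatives).

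Of 3 genes for kinases and a kinase activator of the centrosome and the spindle, 2 fell. AURKA, the Aurora kinase of spindle poles, had 23.7, 22.6 and 22.9 CPM in SMG, against 30.1, 28.6 and 30.7 CPM in NG (-0.37 ± 0.06, adjusted p = 1.20e-05). TPX2, which activates AURKA on microtubules, had 162, 173 and 163 CPM in SMG, against 217, 213 and 208 CPM in NG (-0.36 ± 0.04, adjusted p = 5.23e-09). Enzyme and activator thus fell by 22.6% and 21.9%, with no overlap between the groups. PLK1, the Polo kinase of centrosome maturation and mitotic entry, had 47.8, 47.6 and 49.8 CPM in SMG, against 49.4, 49.8 and 52.0 CPM in NG (-0.06 ± 0.05, adjusted p = 0.388, 95% interval -0.16 to 0.04), with overlapping groups. PLK1 too passed as lower once the length and GC trend was removed (-0.16, adjusted p = 0.00685, 0.00657 to 0.659 over the alternatives).

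The chromosomal passenger complex, which corrects faulty attachments at the centromere, had 2 of 4 genes lower. BIRC5, its survivin subunit, had 16.0, 16.7 and 14.6 CPM in SMG, against 18.8, 19.7 and 18.8 CPM in NG (-0.27 ± 0.07, adjusted p = 0.00405). CDCA8, the borealin subunit that joins survivin, had 34.4, 34.4 and 34.9 CPM in SMG, against 38.1, 41.1 and 43.7 CPM in NG (-0.24 ± 0.06, adjusted p = 0.00105). For both, the SMG libraries were the 3 lowest. AURKB, the kinase of the complex, had 25.6, 26.2 and 27.2 CPM in SMG, against 26.5, 27.7 and 28.0 CPM in NG (-0.05 ± 0.06, adjusted p = 0.499, 95% interval -0.17 to 0.06). INCENP, its scaffold, had 55.3, 57.4 and 54.5 CPM in SMG, against 56.2, 56.1 and 49.9 CPM in NG (0.04 ± 0.05, adjusted p = 0.564, 95% interval -0.06 to 0.14). The groups overlapped for AURKB and INCENP, and without NG replicate 3 the estimate for INCENP was -0.0087.

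All 5 genes of the spindle checkpoint fell. BUB1, the kinase that docks checkpoint proteins on kinetochores, had 54.1, 50.1 and 51.7 CPM in SMG, against 69.2, 70.8 and 69.8 CPM in NG (-0.43 ± 0.05, adjusted p = 2.00e-08). TTK, the MPS1 kinase that starts the checkpoint signal, had 34.5, 33.8 and 36.1 CPM in SMG, against 44.8, 45.5 and 49.7 CPM in NG (-0.42 ± 0.05, adjusted p = 5.33e-07). MAD2L1, which binds and blocks CDC20, had 51.9, 50.1 and 49.5 CPM in SMG, against 65.2, 60.7 and 70.3 CPM in NG (-0.37 ± 0.05, adjusted p = 1.25e-06). In these 3 genes the highest SMG library was well under the lowest NG library. BUB1B, the BubR1 subunit of the inhibitory complex, had 47.6, 48.2 and 48.8 CPM in SMG, against 62.0, 61.2 and 63.9 CPM in NG (-0.37 ± 0.05, adjusted p = 2.74e-07). BUB3, which binds BUB1 and BubR1 and also has roles outside mitosis, fell by 12.4%, with 140.4, 136 and 139 CPM in SMG, against 154, 158 and 162 CPM in NG (-0.19 ± 0.04, adjusted p = 9.21e-05). The 5 calls held under every alternative tried, with log2 fold changes from -0.46 to -0.16.

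Of the inner kinetochore, the layer built directly on centromeric chromatin, 5 of 7 genes fell. CENPH, a subunit of the constitutive centromere-associated network, had 18.2, 19.2 and 17.4 CPM in SMG, against 25.3, 23.7 and 23.8 CPM in NG (-0.41 ± 0.07, adjusted p = 1.44e-05). CENPK, which joins CENPH in one subcomplex, had 22.3, 21.0 and 22.1 CPM in SMG, against 26.2, 26.9 and 27.7 CPM in NG (-0.30 ± 0.06, adjusted p = 0.000242). Both were lower in every SMG library and by every alternative. CENPM, of the same network and the gene with the fewest counts in the list, had 5.10, 5.03 and 4.82 CPM in SMG, against 6.46, 6.59 and 6.28 CPM in NG (-0.37 ± 0.11, adjusted p = 0.00902). CENPA, the histone H3 variant that marks the centromere, had 7.36, 7.50 and 7.36 CPM in SMG, against 8.67, 9.48 and 9.51 CPM in NG (-0.31 ± 0.10, adjusted p = 0.0118). The groups did not overlap for CENPM or CENPA, but neither passed in DESeq2 (CENPM adjusted p = 0.0944, 0.000692 to 0.0944 over the alternatives; CENPA adjusted p = 0.0917, 0.0118 to 0.0917 over the alternatives).

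CENPN, which reads CENPA nucleosomes, was at -0.21 ± 0.08 (adjusted p = 0.028), and this call ended when any of 3 libraries was left out. Without SMG replicate 1 CENPN was at -0.20 (adjusted p = 0.0822), without SMG replicate 3 at -0.21 (0.0821) and without NG replicate 1 at -0.16 (0.165). It was also lost in DESeq2 (0.138), without a filter (0.0656) and with the length and GC trend removed (0.0745, 0.0238 to 0.165 over the alternatives). CENPU, a partner of CENPQ in the same network, had 29.3, 29.5 and 26.8 CPM in SMG, against 31.3, 30.1 and 31.5 CPM in NG (-0.12 ± 0.06, adjusted p = 0.105, 95% interval -0.24 to -0.0027). CENPI, which works with the CENPH subcomplex, had 14.7, 13.8 and 13.0 CPM in SMG, against 14.5, 15.2 and 16.2 CPM in NG (-0.14 ± 0.08, adjusted p = 0.183, 95% interval -0.30 to 0.02). CENPU was separated by under 1 CPM and CENPI overlapped.

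In the outer kinetochore, which grips microtubules, 6 of 7 genes fell. NUF2, which pairs with NDC80 in the microtubule-binding rod, had 25.8, 27.6 and 26.3 CPM in SMG, against 37.9, 36.1 and 37.5 CPM in NG (-0.49 ± 0.06, adjusted p = 6.77e-08), the second largest change of the 46 and one of the printed promoters. NDC80 itself had 21.7, 24.3 and 23.6 CPM in SMG, against 28.2, 29.4 and 31.5 CPM in NG (-0.35 ± 0.06, adjusted p = 6.00e-05). SPC24 and SPC25 form the inner end of that complex, and their estimates were smaller. SPC25 had 14.2, 13.6 and 12.6 CPM in SMG, against 16.1, 16.2 and 16.0 CPM in NG (-0.26 ± 0.08, adjusted p = 0.00931). SPC24 had 11.8, 10.4 and 12.3 CPM in SMG, against 12.0, 12.9 and 13.2 CPM in NG (-0.14 ± 0.09, adjusted p = 0.224, 95% interval -0.32 to 0.04), with overlapping groups. The SPC25 call ended without SMG replicate 3 (-0.21, adjusted p = 0.0662), in DESeq2 (0.0626) and with the length and GC trend removed (-0.14, 0.171, 0.00891 to 0.182 over the alternatives).

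Fibrous corona genes and the scaffold KNL1 complete that layer. CENPE, the kinetochore motor that carries chromosomes to the spindle equator, had 57.1, 57.6 and 62.1 CPM in SMG, against 75.6, 76.0 and 75.0 CPM in NG (-0.36 ± 0.04, adjusted p = 3.36e-07). CENPF, a large protein of the corona, had 284, 295 and 289.9 CPM in SMG, against 365, 352 and 352 CPM in NG (-0.30 ± 0.03, adjusted p = 2.98e-08). KNL1, which recruits BUB1 and BubR1, was at -0.21 ± 0.05 (adjusted p = 0.00142). None of the 3 overlapped between the groups.

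The switch into anaphase gave the widest spread of the classes. PTTG1, the securin that holds separase inactive, had 46.1, 48.0 and 41.6 CPM in SMG, against 65.2, 67.7 and 70.8 CPM in NG (-0.58 ± 0.05, adjusted p = 8.23e-10), so it fell by 33.3%. UBE2C, the ubiquitin-conjugating enzyme of the APC/C, had 47.0, 45.3 and 45.2 CPM in SMG, against 55.7, 53.5 and 55.2 CPM in NG (-0.26 ± 0.05, adjusted p = 8.87e-05). Neither gene overlapped between the groups, and the PTTG1 estimate stayed between -0.63 and -0.53 under every alternative. The pseudogene UBE2CP5 held 6.23% as many counts as UBE2C. CDC20, the APC/C activator that the checkpoint inhibits, had 53.1, 54.5 and 47.8 CPM in SMG, against 59.3, 57.5 and 51.4 CPM in NG (-0.12 ± 0.06, adjusted p = 0.102, 95% interval -0.24 to -0.0038). CDC20 passed as lower without NG replicate 3 (-0.17, adjusted p = 0.00643) and with the length and GC trend removed (-0.18, 0.00458, 0.00286 to 0.457 over the alternatives). ESPL1, separase itself, had 35.1, 36.4 and 36.9 CPM in SMG, against 33.9, 37.4 and 29.2 CPM in NG (0.11 ± 0.07, adjusted p = 0.201, 95% interval -0.02 to 0.25). The 3 NG libraries of ESPL1 spread on both sides of the SMG values, and without NG replicate 2 it passed as higher (0.19, adjusted p = 0.0224, 0.0224 to 0.832 over the alternatives).

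All 4 genes of spindle fibres and poles fell, as did all 3 of the central spindle and cytokinesis. HMMR, a microtubule-binding protein of spindle poles, had 22.5, 20.3 and 20.1 CPM in SMG, against 27.4, 24.8 and 26.3 CPM in NG (-0.32 ± 0.06, adjusted p = 0.000244). NUSAP1, which bundles microtubules around chromosomes, had 80.1, 85.3 and 75.1 CPM in SMG, against 97.7, 99.9 and 98.4 CPM in NG (-0.30 ± 0.04, adjusted p = 3.32e-06). DLGAP5, which stabilises kinetochore fibres, had 45.3, 44.9 and 43.1 CPM in SMG, against 51.4, 52.2 and 58.7 CPM in NG (-0.28 ± 0.05, adjusted p = 0.000112). ASPM, the pole protein whose human mutations cause microcephaly, showed the smallest of these changes, with 108, 108 and 110.1 CPM in SMG, against 127, 123 and 123 CPM in NG (-0.19 ± 0.04, adjusted p = 0.000101). The SMG libraries were the 3 lowest in each of the 4 genes.

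The cytokinesis genes were close to each other in size of change. ANLN, the anillin of the cleavage furrow, had 42.2, 42.7 and 43.0 CPM in SMG, against 54.9, 49.6 and 52.4 CPM in NG (-0.30 ± 0.05, adjusted p = 2.91e-05). PRC1, which crosslinks the central spindle, had 70.0, 67.3 and 63.9 CPM in SMG, against 86.9, 80.6 and 76.6 CPM in NG (-0.28 ± 0.05, adjusted p = 3.13e-05). ECT2, the exchange factor that activates RhoA at the furrow, had 69.2, 65.3 and 65.7 CPM in SMG, against 80.2, 78.5 and 80.9 CPM in NG (-0.26 ± 0.04, adjusted p = 1.87e-05). No group overlapped, and the calls of these 3 genes and of the 4 spindle genes held under every alternative. NUSAP1 and PRC1 share 62.2% and 57.6% of their exon bases with same-strand loci in GENCODE 29 that have no row in the count table. Smaller overlaps with genes on the other strand were those of CENPN (12.8%), CENPU (11.7%), PLK1 (11.6%), CCNA2 (9.08%) and CDC25C (8.78%), and on the same strand those of BUB1B (10.2%) and CENPA (6.96%). Without strand, reads of a gene and its partner on the other strand cannot be told apart there.

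**Figure D2:**
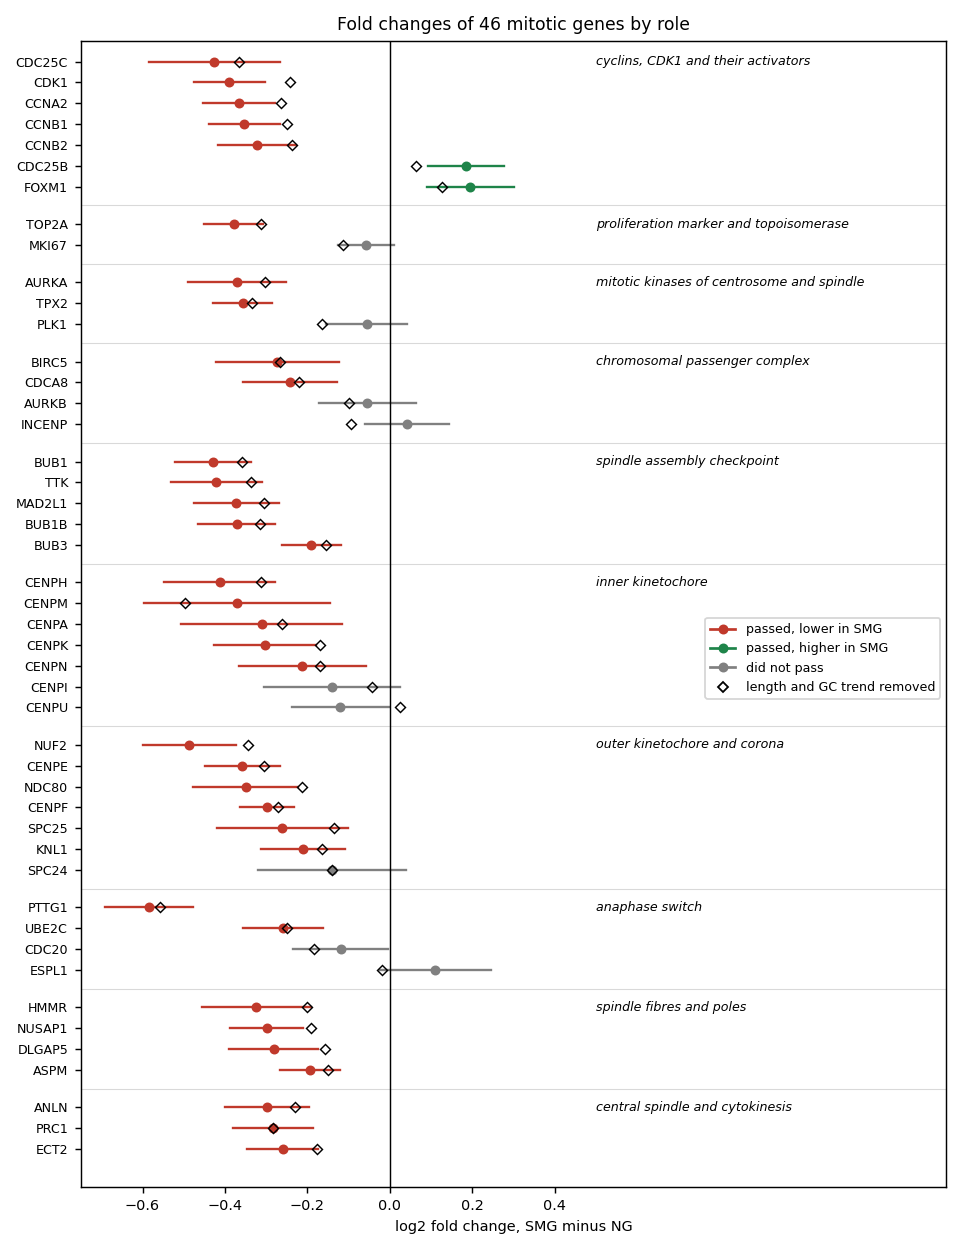
Each row is a gene and the horizontal axis is its log2 fold change, SMG minus NG. Filled circles with bars are the estimates with 95% intervals, red for genes that fell, green for those that rose and grey for those that did not pass. Open diamonds are the estimates with the length and GC trend removed, when 36 genes passed as lower and none as higher.

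Per kb of longest transcript, the levels kept their wide range in both groups. TOP2A stood highest, at 74.5 CPM per kb in SMG, against 97.0 CPM per kb in NG. UBE2C came next in SMG (50.1 CPM per kb in SMG, against 59.9 CPM per kb in NG), while PTTG1 was second in NG (42.3 CPM per kb in SMG, against 63.4 CPM per kb in NG). The lowest was CENPI (4.24 CPM per kb in SMG, against 4.68 CPM per kb in NG), and SPC24 (4.96 CPM per kb in SMG, against 5.48 CPM per kb in NG) lay well below its partners NUF2 (13.5 CPM per kb in SMG, against 18.9 CPM per kb in NG), NDC80 (10.7 CPM per kb in SMG, against 13.7 CPM per kb in NG) and SPC25 (9.93 CPM per kb in SMG, against 11.9 CPM per kb in NG).

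The counts below stand beside 18.5% lower and 17.3% higher among all tested genes, and 26.3% and 22.7% among those of at least 10 CPM. With the length and GC trend removed the shares were 16.2% and 14.9%, again among all tested genes. Of 11 tested mitotic kinesins, 10 fell and 0 rose (median -0.26), with KIF20A of cytokinesis at -0.43 ± 0.05, KIF2C of the centromere at -0.36 ± 0.06 and KIF23 of the central spindle at -0.31 ± 0.05. Of 44 other kinetochore and spindle genes, 23 fell (52.3%), 2 rose and 19 did not pass (median -0.16). The centrosome kinase NEK2 had 21.3 ± 0.913 CPM in SMG, against 29.8 ± 1.20 CPM in NG (-0.48 ± 0.06), and BORA, which helps AURKA to activate PLK1, had 16.2 ± 0.545 CPM in SMG, against 21.5 ± 1.76 CPM in NG (-0.41 ± 0.07). CENPQ also fell (-0.40 ± 0.12, adjusted p = 0.0126), a call that ended in 4 alternatives, among them those without SMG replicate 2, NG replicate 1 or NG replicate 3 (adjusted p up to 0.0753). With the length and GC trend removed the kinesins had 7 lower and 0 higher, and the other kinetochore and spindle genes 18 lower and 3 higher.

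Of 19 cohesin and condensin genes, 10 fell and 2 rose (median -0.11), with the condensin II subunit NCAPG2 at -0.26 ± 0.05 and the cohesin loader MAU2 at 0.26 ± 0.04. The condensin I subunit NCAPH was at -0.24 ± 0.06 and did not pass without NG replicate 1 (adjusted p = 0.0523). Of 18 subunits and regulators of the APC/C, 8 fell and 2 rose (median -0.10). The 2 that rose were ANAPC2 (0.33 ± 0.06), the cullin subunit, and FZR1 (0.31 ± 0.06), the activator that replaces CDC20 after mitosis and in postmitotic neurons, and ANAPC16 fell (-0.25 ± 0.05). With the trend removed the APC/C list had 3 lower and 2 higher, and cohesin with condensin had 9 lower and 1 higher.

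Of 37 genes of the G1/S transition and DNA replication, 11 fell (29.7%), 3 rose and 23 did not pass (median -0.06), and 7 fell and 2 rose with the trend removed. The share that fell is near the 26.3% among genes of at least 10 CPM. E2F8, a repressor of E2F targets, had 4.34 ± 0.122 CPM in SMG, against 6.03 ± 0.482 CPM in NG (-0.48 ± 0.12), and RRM1, the large subunit of ribonucleotide reductase, had 124 ± 2.60 CPM in SMG, against 151 ± 5.96 CPM in NG (-0.28 ± 0.04). ORC6 of the origin recognition complex had 28.6 ± 0.777 CPM in SMG, against 23.9 ± 1.13 CPM in NG (0.25 ± 0.06).

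The DREAM, MuvB and RB family list, which holds regulators of these promoters, had 5 lower and 3 higher of 13 (median -0.04), or 4 and 4 with the trend removed. E2F5 fell (-0.25 ± 0.06). LIN9, a MuvB subunit, fell too (-0.27 ± 0.08), a call that ended without SMG replicate 3 (adjusted p = 0.071). LIN37, another MuvB subunit, was higher (0.38 ± 0.14), a call that ended in 7 alternatives, among them DESeq2, limma-voom and those without SMG replicate 1, SMG replicate 2 or NG replicate 2 (adjusted p up to 0.197).

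Of 16 CDK inhibitors and genes of cycle exit, 9 fell (56.3%), 1 rose and 6 did not pass (median -0.31), and 10 fell and 1 rose with the trend removed. CDKN1A, the p21 inhibitor induced by p53, had 33.2 ± 1.31 CPM in SMG, against 48.2 ± 1.36 CPM in NG (-0.54 ± 0.05), CCNG1, an atypical cyclin also induced by p53, had 209.8 ± 7.38 CPM in SMG, against 304 ± 22.8 CPM in NG (-0.54 ± 0.04), and BTG3, an antiproliferative gene, had 32.6 ± 1.55 CPM in SMG, against 46.6 ± 1.22 CPM in NG (-0.51 ± 0.05). CCNG2, a relative of CCNG1, was the 1 that rose (0.11 ± 0.04) and is named here after its value was seen; it did not pass without SMG replicate 2 or NG replicate 1 (adjusted p up to 0.12).

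**Figure D3:**
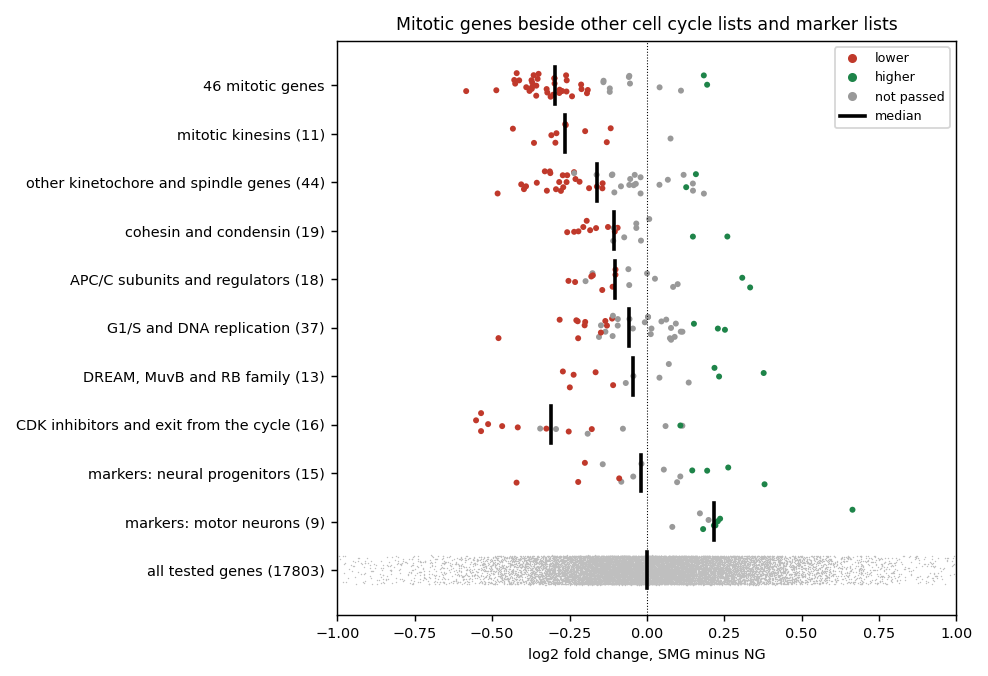
Each point is a tested gene, placed by its log2 fold change, SMG minus NG, with lists in rows and the number of genes in brackets. Red points fell, green points rose, grey points did not pass, and the black bar is the median. The medians are -0.30 for the 46 mitotic genes, -0.26 for mitotic kinesins, -0.06 for G1/S and replication genes and 0.22 for motor neuron markers, and the axis leaves out genes beyond 1 in either direction.

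Members that did not fall were mostly those of high GC content. GC content of the longest transcript had a median of 42.1% in the 35 members that fell and of 55.6% in the 11 that did not. Of the 8 members with at least 55% GC, 1 fell (CENPM, 61.4%) and 2 rose (FOXM1, 55.6%, and CDC25B, 59.3%). Among all 2660 tested genes of at least 10 CPM in that band, 207 of 2660 (7.78%) were called lower and 1286 of 2660 higher. Of the 26 members with less than 45%, 24 fell. Among tested genes of at least 10 CPM, 46.3% were called lower under 40% GC and 36.8% from 40% to 45%. The same trend was present across the transcriptome. Among tested genes of at least 10 CPM the median log2 fold change was -0.11 under 40% GC, -0.08 from 40% to 45%, -0.03 from 45% to 50%, 0.03 from 50% to 55% and 0.14 from 55%.

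The members lay below those medians in every band. Their median log2 fold change was -0.31 under 40% GC (12 genes), -0.34 from 40% to 45% (14 genes), -0.33 from 45% to 50% (8 genes), -0.25 from 50% to 55% (4 genes) and -0.0067 from 55% (8 genes). With the trend removed the median of the 46 was -0.22, and the medians by band were -0.19, -0.24, -0.29, -0.23 and -0.10, in the same order. Spearman's rho between GC content and log2 fold change over the 46 genes was then 0.11, against 0.39 before. Among the 35 that fell it was -0.38, against -0.0084 before, and among the 11 others -0.10, against 0.60 before. These genes share libraries and are not independent. What made GC content go with the fold changes was not tested.

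**Figure D4:**
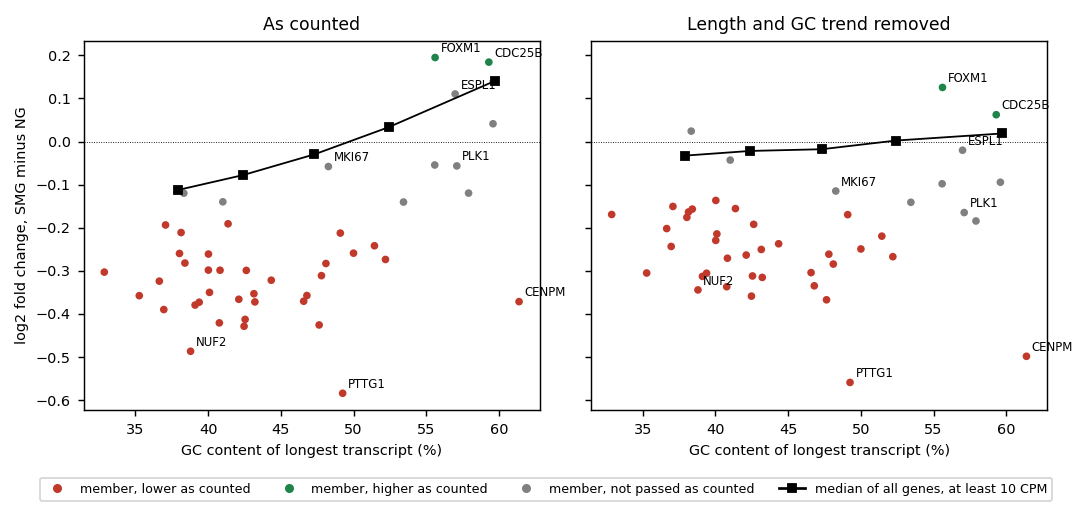
Points are the 46 genes by GC content of the longest transcript, in percent, and log2 fold change, SMG minus NG, as counted on the left and with the length and GC trend removed on the right. Black squares join the medians of all tested genes of at least 10 CPM in 5 bands of GC content, from -0.11 to 0.14 on the left. On the right FOXM1 and CDC25B lie nearer to 0 and MKI67 and PLK1 lie lower.

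Summed over the 46 genes, the level was 3003, 2998 and 2962 CPM in SMG, against 3614, 3542 and 3606 CPM in NG. The sum was 16.7% lower in SMG, and the SMG libraries were tightly grouped. Summed markers of neural progenitors, of which NES and VIM make the largest part, overlapped between the groups, at 4229, 4384 and 4380.0 CPM in SMG, against 4205, 4255 and 4392 CPM in NG. Of 15 progenitor markers 4 fell and 4 rose, with FABP7 the lowest (-0.42 ± 0.06) and SOX2 not passing (-0.08 ± 0.03). FABP7, OLIG2 and PAX6 were lower in all 18 alternatives, while the fall of VIM was lost in 7. Each of the 4 rises was lost in some alternative: NKX2-2 in 9, NOTCH1 in 2, and SOX9 and MSI1 in 1 each. With the trend removed 5 fell and 1 rose.

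Summed motor neuron markers were higher in SMG, at 844, 844 and 817 CPM in SMG, against 723, 714 and 690.2 CPM in NG. Of 9 such markers 6 rose and 0 fell (median 0.22), and 4 rose with the trend removed (median 0.08). ISL1, LHX4, SLC18A3 and SLC5A7 were higher in all 18 alternatives. The rise of LHX3 was lost in 4, among them DESeq2 and the fit without SMG replicate 3, and that of MNX1 in 2. ISL2, which did not pass, passed as higher in 4. The general neuron markers were mixed: of 10, 2 fell (STMN2 at -0.12 ± 0.03 and ELAVL4 at -0.17 ± 0.03) and 3 rose (TUBB3 at 0.65 ± 0.07, RBFOX3 at 0.47 ± 0.09 and ELAVL3 at 0.40 ± 0.04), with a median of 0.07. With the trend removed 1 fell and 5 rose, and STMN2 did not pass (adjusted p up to 0.799 over the alternatives). Their sums overlapped, at 11257 to 11435 CPM in SMG, against 10416 to 11409 CPM in NG. Markers of pluripotent cells summed to 74.2 to 81.1 CPM in SMG, against 83.5 to 89.5 CPM in NG, nearly all of it from LIN28A and DPPA4, while POU5F1 and NANOG were at 0.0603 and 0.0146 CPM in SMG, against 0.0880 and 0.124 CPM in NG. Astrocyte markers summed to 38.8 to 42.0 CPM in SMG, against 45.3 to 45.5 CPM in NG, from SLC1A3, which progenitors also express. Mesenchymal, endothelial with immune, and muscle markers summed to at most 5.30 CPM in any SMG library and 4.90 CPM in any NG library. The part of these cell types in the fall of the mitotic genes was not tested.

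**Figure D5:**
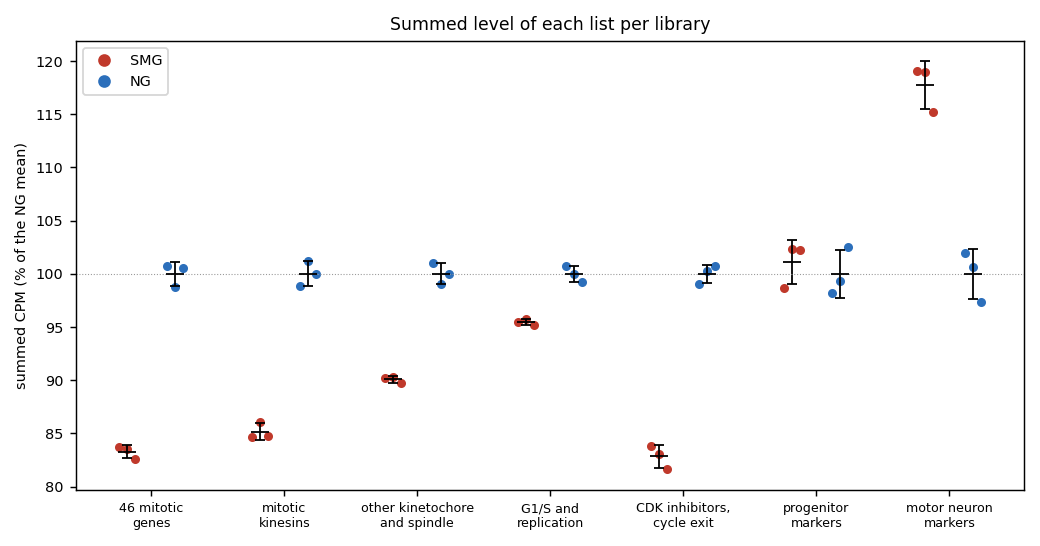
Points are libraries, SMG in red to the left of NG in blue, by the summed CPM of each list as a percentage of its NG mean, with mean and SD in black. The vertical axis starts near 80%. The 46 mitotic genes stand 16.7% below NG, the progenitor markers overlap and the motor neuron markers stand 17.8% above.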

How the data were processed

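The deposited values are raw counts of reads per Ensembl gene. The tools of the authors were HISAT2, SAMtools, featureCounts and DESeq2 on the build hg19, per the submitters' processing notes. The sources used here give neither versions nor annotation, and do not say how strand and multimapping reads were handled. Symbols came from a table of gene names, which matched 51996 of 57820 IDs, and from GENCODE 29, which is on another build and gave only names, exon overlap, transcript length and GC content.

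Counts were filtered with filterByExpr, scaled by TMM and tested with edgeR 4.0.16 (glmQLFit, robust, and glmQLFTest), with Benjamini-Hochberg adjustment over 17803 genes and a threshold of 0.05. SE is the absolute log2 fold change over the square root of F. The median SE over the 46 genes was 0.0510. Within a group no libraries agreed within sampling noise, so each was counted once. Chi-square over its degrees of freedom was 1.60 between NG replicates 1 and 2, and 3.24 and 3.38 between them and NG replicate 3. In SMG it was 2.04 to 2.93. The members and lists were chosen with earlier results of these data known. All members are described. Values per library are given, in each role class, for up to 4 that passed and up to 2 that did not, and of other lists up to 3 that passed with the largest change are named; CDC25B and FOXM1, which passed in the direction opposite to most, come in by the same rule, and BUB3, SPC25, CCNG2 and the cell type markers in addition. Alternatives used DESeq2 1.42.0, limma 3.58.1 (voom), other scalings and filters, a replicate block, length and GC offsets (natural splines per library), each library left out and, added after the data were seen, protein-coding genes alone. The fits were tested on simulated counts. R 4.3.3 was used. One list of cell type markers is not reported here.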

Additional observations from a re-analysis of the deposited data

How the results depend on the processing

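The count of members that fell stayed between 31 (DESeq2) and 36 under the 18 alternatives, and that of members that rose was 2 in all but the fits with the length and GC trend removed, where it was 0 with and without the block, and the fit without NG replicate 2, where it was 3. The median log2 fold change was -0.29 with upper quartile scaling, -0.28 with library size scaling, -0.29 without a filter, -0.29 over protein-coding genes alone, -0.22 with the length and GC trend removed and -0.23 (-0.225) with that and the block, and from -0.30 to -0.28 with 1 library left out. With the trend removed, and with the block added, the sign turned for 3 members that did not pass: INCENP (-0.094 and -0.092), CENPU (0.024 and 0.025) and ESPL1 (-0.020 and -0.019), and INCENP ranged from -0.0087 to 0.074 with 1 library left out. Over all genes, DESeq2 called 2242 lower and 2098 higher, against 3296 and 3080, and the other alternatives 2549 to 3256 lower and 2412 to 3440 higher.

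Replicate numbers are shared by the groups, but same-numbered libraries did not deviate together (correlations -0.00406, 0.0178 and -0.0281). The labels do not say that they pair, and with 3 libraries per group this check cannot exclude it. With the replicate number as a block 35 members fell and 2 rose, and over all genes 3256 and 3077. At this depth members under 20 CPM had wider intervals, and the calls lost in DESeq2 (CENPA, CENPM, CENPN and SPC25) were among them.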

Other observations

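Some partners in the same step of mitosis stood in other ratios in SMG. The pairs were picked after their values were seen, so the ratios are descriptions with no test. Securin to separase (PTTG1 to ESPL1, CPM per kb) was 8.17, 8.22 and 7.03 in SMG, against 12.0, 11.3 and 15.1 in NG. CDC25B to CDC25C was 3.04, 3.03 and 3.09 in SMG, against 1.90, 2.10 and 2.03 in NG. Survivin to its scaffold (BIRC5 to INCENP) was 0.423, 0.426 and 0.393 in SMG, against 0.488, 0.514 and 0.550 in NG. The groups did not overlap in any of the 3 ratios. In each pair the gene that changed less or rose is the one of higher GC content (ESPL1 57.0%, CDC25B 59.3%, INCENP 59.6%), against PTTG1 49.3%, CDC25C 47.6% and BIRC5 52.2%. With the length and GC trend removed the log2 fold changes were -0.56 for PTTG1 and -0.02 for ESPL1, 0.06 for CDC25B and -0.37 for CDC25C, and -0.27 for BIRC5 and -0.09 for INCENP.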
